A study of Mus musculus with 24 samples.

Results

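The data are an immunoprecipitation of RNA with an antibody against 5-hydroxymethylcytosine (hm5C RIP), set against its input RNA, in mouse embryonic stem cells. There were 2 hm5C RIP libraries and 2 RIP input libraries, 4 of the 24 samples of a series on the RNA contacts and RNA substrates of TET2. The submitters call the replicates of each group biological ones. All 4 libraries came from untreated cells of strain B6;129, kept on gelatin with serum, leukaemia inhibitory factor, CHIR99021 at 3 µM and PD0325901 at 1 µM. RNA was extracted with TRIzol, for hm5C RIP after the precipitation, and all 4 libraries were made with the TruSeq small RNA kit. No library made with an unrelated antibody, and no RIP from cells without TET2, is among the samples analysed here. Every row of the deposited table with enough counts was described: 2081 of 53900 rows passed the count filter, while 21436 rows held at least 1 count.

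5-Hydroxymethylcytosine arises when TET dioxygenases oxidise 5-methylcytosine. In RNA, 5-methylcytosine is placed by methyltransferases of the NSUN family and by DNMT2 (gene Trdmt1), and tRNAs and ribosomal RNAs are their best known substrates. The comparison asks which RNAs were recovered with the hm5C antibody above their level in the RNA the precipitation started from. A RIP value is an amount recovered per feature and carries no position of a modified base.

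The libraries held 1564014 and 2100187 counts in hm5C RIP, against 4641963 and 4889943 counts in input. Rows with a count numbered 10908 and 11564 in hm5C RIP and 13398 and 14263 in input. The spread between replicates exceeded counting error: chi-square divided by its degrees of freedom was 12.9 for the hm5C RIP pair and 14.2 for the input pair. Markers of embryonic stem cells were detected at low counts. The 26 core pluripotency genes summed to 79 and 161 counts in hm5C RIP and 311 and 404 counts in input, with Pou5f1 at 6 and 7 against 13 and 14 counts and Sox2 at 1 and 5 against 17 and 18 counts. Fibroblast markers summed to 97 and 124 counts in hm5C RIP and 86 and 96 counts in input. The markers of blood, liver, muscle and myeloid cells held 284 and 1 counts in hm5C RIP and 1 and 0 counts in input. Of these, 283 counts were Alb, the albumin gene, in hm5C RIP replicate 1, and 6 of the 9 markers had no count in any library.

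A single row, Acsl6, took most of the hm5C RIP counts. Acsl6 (chromosome 11, 54303805 to 54364756, GRCm38) is annotated as a protein coding gene for an acyl-CoA synthetase that activates long-chain fatty acids. It held 862857 and 1272857 counts in the hm5C RIP libraries, against 11828 and 8176 counts in the input libraries. This was 55.2% and 60.6% of all counts in hm5C RIP, against 0.255% and 0.167% in input, or 57.9% ± 3.84 against 0.211% ± 0.0619 (SD, n = 2 each). With 2 libraries a group, a two-sided exact permutation test cannot go below p = 0.333, the value it gave. In edgeR's quasi-likelihood test over all features the log2 change of Acsl6 was 7.89 (SE 0.45, adjusted p = 1.99e-05). In the 8 libraries of the TET2 crosslinking experiment of the same series, counted over the same rows, Acsl6 held between 0 and 130 counts, at most 0.00286% of a library. The values are counts per gene row and do not show which bases of the Acsl6 locus the reads covered.

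The changes of all other features depend on how the libraries are scaled to each other. Without Acsl6, 701157 and 827330 counts (44.8% and 39.4%) were left in hm5C RIP, against 4630135 and 4881767 counts in input. Changes are given here on the scale of edgeR's trimmed mean of M-values (TMM), which takes the middle of the tested features as level. On that scale 686 features were higher in hm5C RIP (33.0% of 2081) and 394 were lower (18.9%), with a median log2 change of 0.15, so 63.5% of the calls were higher. With Acsl6 removed and TMM run anew, 824 of 2523 features were higher and 455 lower, and the changes of the features tested in both moved by a median of -0.15. With Acsl6 removed and each library scaled only to the counts left, 1686 of 2523 were higher and 88 lower, so 95.04% of the calls were higher, and the changes moved by a median of 1.47. Leaving out 1 library at a time gave 356 higher and 301 lower without input replicate 1, 336 and 311 without input replicate 2, 745 and 640 without hm5C RIP replicate 1, and 737 and 518 without hm5C RIP replicate 2. The sign of a negative change smaller in size than the shift of 1.47 can therefore depend on the scale. What matters is whether the middle feature or the total of the other counts is held level. With that total held level, 684 of the 686 higher features and 88 of the 394 lower ones kept their call. Scaling to the counts left without Acsl6 is called the remaining-count scale from here on. Values on it are given for many, but not all, results whose direction differs from that on the TMM scale. Medians on the remaining-count scale are over the members tested on both scales, unless another set is named.

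**Figure D1:**
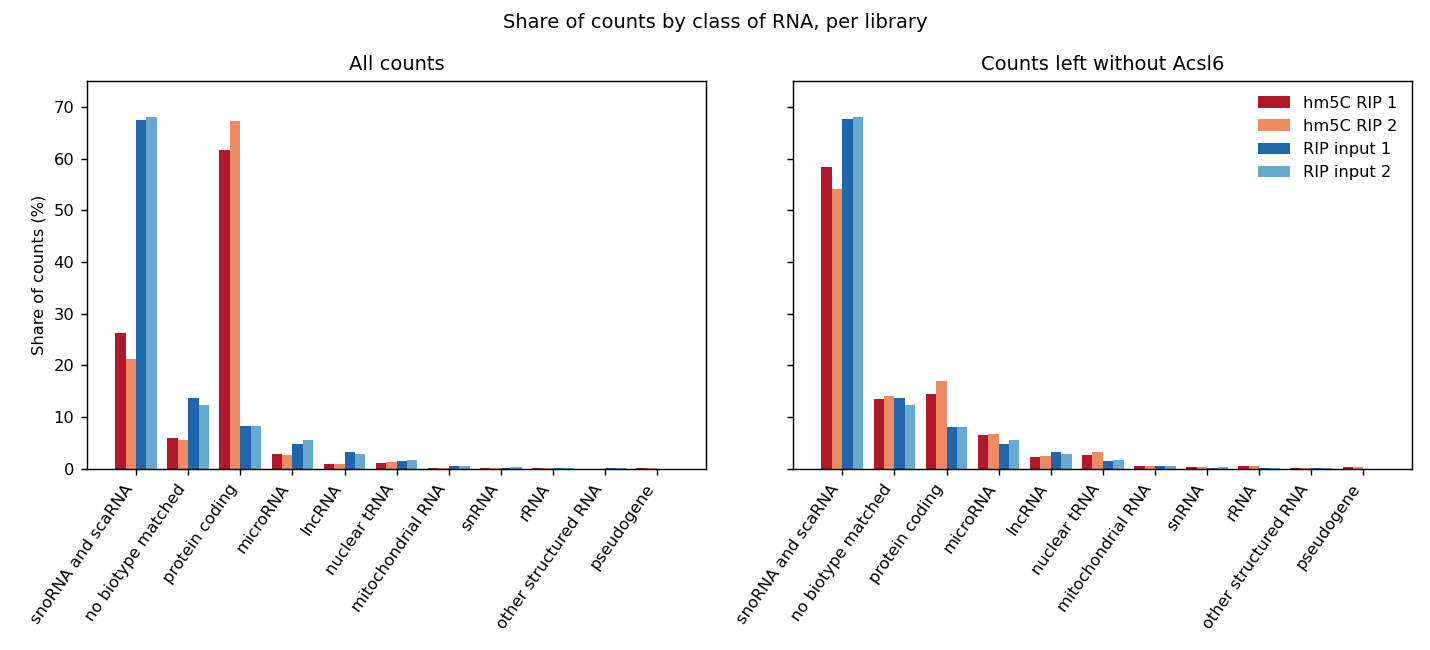
Share of counts (%) by class of RNA in each of the 2 hm5C RIP libraries (red shades) and the 2 input libraries (blue shades), over all counts (left) and over the counts left without Acsl6 (right). Protein coding rows reached 61.7% and 67.3% of all hm5C RIP counts, and 14.5% and 17.0% once Acsl6 was left out, against 8.04% and 8.17% in input.

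Shares of the counts left without Acsl6 show how the rest of the RNA was distributed. They hold the total of those counts level, as the remaining-count scale does. The direction of a class can therefore differ from that on the TMM scale. Small nucleolar RNAs (snoRNAs) and the related small Cajal body RNAs held 58.5% and 54.2% of them in hm5C RIP, against 67.6% and 68.1% in input. Nuclear tRNA genes held 2.72% and 3.21% in hm5C RIP and 1.60% and 1.73% in input. MicroRNA genes held 6.58% and 6.78% in hm5C RIP and 4.82% and 5.64% in input. Ribosomal RNA rows, whose counts came from copies of 5S rRNA and 1 row of 5.8S rRNA, held 0.574% and 0.576% in hm5C RIP, against 0.119% and 0.142% in input. Rows with no biotype matched held 13.4% and 14.2% in hm5C RIP, against 13.6% and 12.3% in input. Among them Gm26917 held 8.69% and 8.71% in hm5C RIP, against 10.9% and 9.48% in input. Whether such rows hold reads of ribosomal RNA was not tested, so the rRNA share covers the annotated rows only. Rows annotated as pseudogenes held 0.424% and 0.434% against 0.0537% and 0.0665%. Mitochondrial RNA held 0.481% and 0.554% in hm5C RIP, against 0.490% and 0.484% in input, and these values overlap between the groups. The binomial 95% interval (exact Clopper-Pearson) of a class share was at most 0.115 percentage points to either side and covers counting error only.

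Of the 686 higher features, 535 were protein coding genes, 78.0%, from a class that made up 1327 of the 2081 tested features, so 40.3% of tested coding genes were higher beside 33.0% of all. The count of higher coding genes was 276 without input replicate 1 and 257 without input replicate 2, and that of lower ones, 79 over all libraries, ran from 42 to 222 with 1 library left out. Most higher features were scarce in the input. Both input libraries together held 0 counts of 93 higher features, 1 to 3 counts of 159 and over 100 counts of 24. The median higher feature had 32 counts over both hm5C RIP libraries and 5 counts over both input libraries. Features scarce in input could pass the filter only through hm5C RIP, so a high share of higher calls among them follows from the filter and is not read further. With the filter set on the mean of all 4 libraries (at least 10 counts), 370 of 1632 features were higher and 292 lower. Apart from Acsl6, the higher features together held 5.29% and 5.37% of the remaining counts in hm5C RIP, against 0.147% and 0.170% in input. The lower features were abundant ones, with medians of 67.5 counts over both hm5C RIP libraries and 557 counts over both input libraries. They held 85.1% and 83.2% of the remaining counts in hm5C RIP and 96.5% and 95.9% in input. Among the 520 tested features with the highest mean level, 89 were higher and 268 lower, and among the 521 with the lowest mean level 246 were higher and 26 lower.

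**Figure D2:**
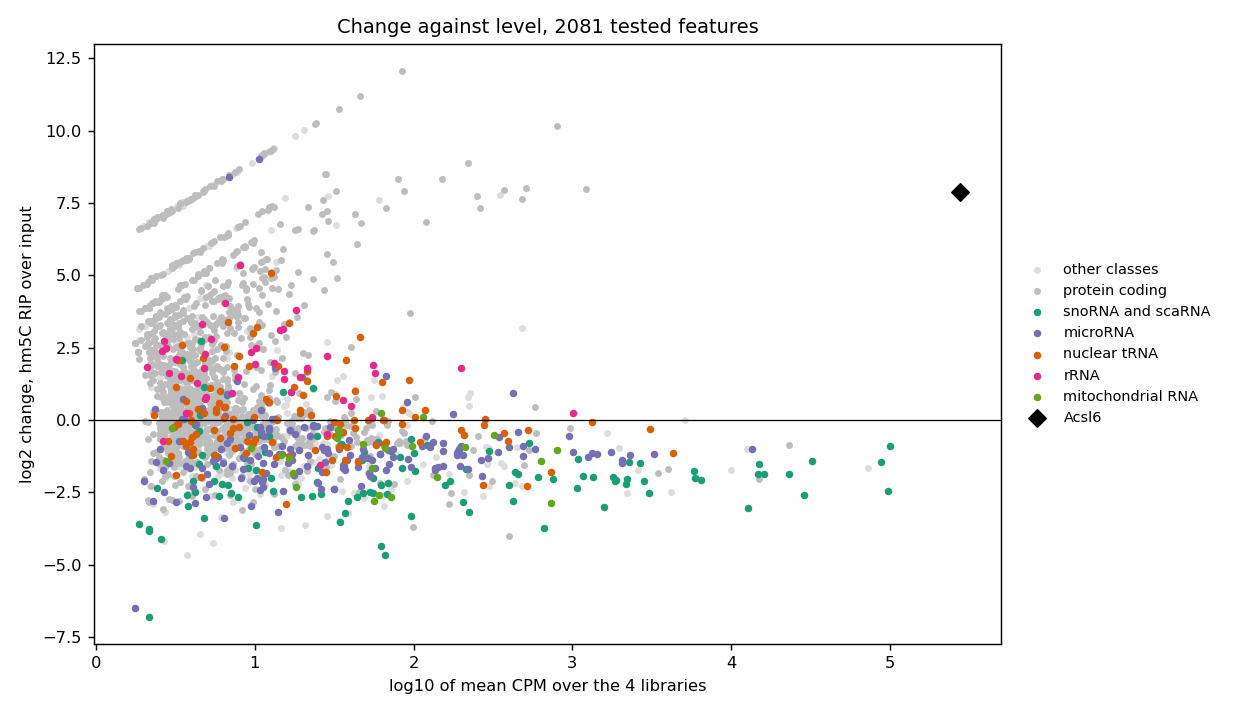
Log2 change of hm5C RIP over input on the TMM scale against the log10 of the mean CPM over the 4 libraries, 1 point per tested feature, coloured by class. Acsl6 (diamond) lies apart from all others, protein coding genes fill the upper left, and snoRNAs and microRNAs lie mostly below 0 at high levels. The slanted lines of points at the upper left are features with the same few input counts.

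A set of protein coding genes rose in both hm5C RIP libraries while the input held few counts of each. Neurl3, of the Neuralized family of ubiquitin ligases (chromosome 1, 36264602 to 36274674), had 3263 and 2600 counts in hm5C RIP and 6 and 6 counts in input, a log2 change of 10.17 (SE 0.56, adjusted p = 1.99e-05 in edgeR). Slc2a8, which encodes the sugar transporter GLUT8 (chromosome 2, 32972981 to 32982083), had 4287 and 4913 counts in hm5C RIP and 56 and 26 counts in input, a log2 change of 7.99 (SE 0.53, adjusted p = 4.33e-05). For both genes the hm5C RIP counts lay far above those of input, although the input libraries were the deeper ones.

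The 12 rising features with the smallest p were all protein coding, and their adjusted p in edgeR lay between 1.93e-05 and 1.99e-05. Nol4l had 1854 and 1967 counts in hm5C RIP and 14 and 20 counts in input, with a log2 change of 8.03. Aldh2, the mitochondrial aldehyde dehydrogenase (chromosome 5, 121566027 to 121593824), had 1623 and 2027 counts in hm5C RIP and 19 and 23 counts in input. Flt3, a receptor tyrosine kinase of blood progenitors (chromosome 5, 147330741 to 147400489), had 1157 and 1726 counts in hm5C RIP and 16 and 10 counts in input. All 3 were low in both input libraries. Mrps5 encodes a protein of the small subunit of the mitochondrial ribosome and had 914 and 1076 counts in hm5C RIP, against 17 and 11 counts in input. Atp1a4, the sodium pump subunit of sperm, had 635 and 1129 counts in hm5C RIP, against 5 and 3 counts in input. Bicra, a subunit of a BAF-type chromatin remodelling complex, had 542 and 596 counts in hm5C RIP, against 3 and 5 counts in input. Odf2, Hivep1, Mbp, Duox2 and Nfix complete the 12, and their log2 changes lay between 6.79 (Nfix) and 8.33 (Mbp). Neither annotated snoRNA nor microRNA genes lie inside any of these 12 genes in RefSeq.

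**Figure D3:**
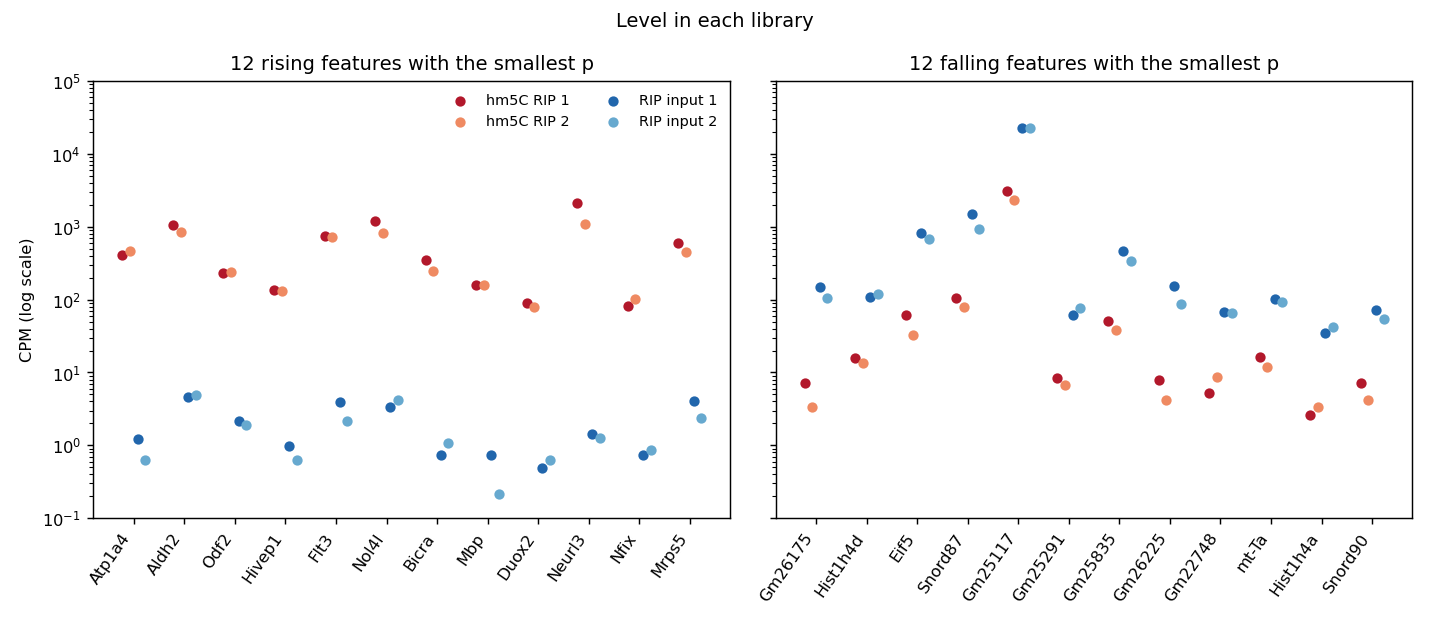
CPM (log scale) in each of the 2 hm5C RIP and 2 input libraries for the 12 rising (left) and the 12 falling (right) features with the smallest p among those whose groups did not overlap. The rising genes lie under 5 CPM in input, and the falling features are mostly snoRNAs, together with histone genes, Eif5 and mt-Ta.

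Some genes were absent from the input at this depth. Olfr215, an olfactory receptor gene (chromosome 6, 116582012 to 116582944), had 121 and 250 counts in hm5C RIP and 0 counts in both input libraries. Against a floor of 3 counts per input library this is at least 134-fold higher in hm5C RIP. Rhox2e, a homeobox gene of the X-linked Rhox cluster, had 114 and 148 counts in hm5C RIP and none in input, at least 99.7-fold higher. Replicates of hm5C RIP differed for part of the higher features, since 146 of the 686 had CPM that differed by more than 2-fold between the 2 libraries. Without hm5C RIP replicate 1, 488 of the 686 were called higher again, and without input replicate 2, 302.

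Small nucleolar RNAs were the largest class of the input and fell relative to the middle of the tested features. C/D box snoRNAs guide ribose methylation and H/ACA box snoRNAs guide pseudouridylation, mostly of ribosomal RNA. Of 42 tested C/D box snoRNAs named as Snord genes, 0 were higher and 41 lower in hm5C RIP on the TMM scale, with a median log2 change of -2.05. On the remaining-count scale 23 of the 42 were lower and 3 higher, and the median was -0.59. Of the 12 tested H/ACA box and small Cajal body RNAs, 0 were higher and 8 lower, with a median of -1.38 that turned to 0.30 on the remaining-count scale, and 5 of 11 were lower without either input library.

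Single snoRNAs differed in how far they fell. Snord87 (chromosome 1, 9942470 to 9942543) had 161 and 193 counts in hm5C RIP and 6255 and 4442 counts in input, a log2 change of -3.73 (SE 0.36, adjusted p = 0.000274 in edgeR), and of -2.25 on the remaining-count scale. Snord90 had 11 and 10 counts in hm5C RIP and 298 and 253 counts in input, a log2 change of -3.52. Snord43, the most counted row of the input (chromosome 15, 80082859 to 80082906), had 58236 and 53682 counts in hm5C RIP and 740695 and 701001 counts in input, a log2 change of -2.44. Snord83b, which lies in the same gene, Rpl3, had 14117 and 16661 counts in hm5C RIP and 220210 and 210252 counts in input, a log2 change of -2.60. Snord55 (chromosome 4, 117155771 to 117155848), the most counted snoRNA of hm5C RIP, had 124577 and 137945 counts in hm5C RIP and 509874 and 646735 counts in input. Its log2 change was -0.91 on the TMM scale (adjusted p = 0.0369) and 0.54 on the remaining-count scale (adjusted p = 0.00471).

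The shares within the snoRNA class need no scaling between libraries. Snord55 took 30.4% and 30.8% of snoRNA counts in hm5C RIP, against 16.3% and 19.5% in input. Snord49a took 20.3% and 21.5% in hm5C RIP, against 17.5% and 17.7% in input. Snord43 took 14.2% and 11.98% in hm5C RIP, against 23.7% and 21.1% in input. Snord83b took 3.44% and 3.72% in hm5C RIP, against 7.03% and 6.32% in input. Gm25117, a row annotated as a snoRNA of 144 bases, took 1.16% and 1.26% in hm5C RIP, against 2.99% and 3.22% in input. The groups did not overlap for these 5 snoRNAs, which were chosen with their values known, while they overlapped for Snord32a and Snord49b, with 1.04% and 1.33% of snoRNA counts in hm5C RIP and 1.32% and 1.12% in input for Snord32a. Over all 92 snoRNA rows with at least 100 counts in the 4 libraries, 28.3% had a larger share of the class in both hm5C RIP libraries than in either input library, and 51.1% a smaller one.

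Part of the genes that carry snoRNAs inside their span were lower as well. Long noncoding host genes of snoRNAs had 0 higher and 7 lower of 10 tested, and a median log2 change of -2.22 on the TMM scale, and 2 higher and 6 lower of 10 on the remaining-count scale. Gas5, which hosts a series of C/D box snoRNAs (chromosome 1, 161034601 to 161038539), had 2369 and 2314 counts in hm5C RIP and 33254 and 28754 counts in input, a log2 change of -2.50. Of 87 tested coding genes with a snoRNA inside, 27 were lower, 8 higher and 52 without a call. Of the 79 lower protein coding genes, 27 (34.2%) have a snoRNA gene inside their span in RefSeq, against 8 of the 535 higher ones (1.495%), 52 of the 713 without a call (7.29%) and 383 of all 20915 coding rows (1.83%). Lower coding genes were also shorter, with a median span of 9739 bases, against 38142 bases for higher genes and 31665 bases for genes without a call. The part of gene length in these shares was not tested, and the counts do not tell whether reads lay in exons or in the snoRNA.

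Eif5, a translation initiation factor with Snora28 inside its span (chromosome 12, 111538101 to 111546753), had 95 and 80 counts in hm5C RIP and 3403 and 3216 counts in input, a log2 change of -3.999 (SE 0.38, adjusted p = 0.000271 in edgeR). It was the lower coding gene with the smallest p, and its log2 change was -2.56 on the remaining-count scale. Hspa8, the constitutive Hsc70 chaperone, holds Snord14c, Snord14d and Snord14e and had 10611 and 11146 counts in hm5C RIP and 112198 and 97866 counts in input. Cytosolic ribosomal protein genes, many of them snoRNA hosts, had 0 higher and 17 lower of 35 tested, and a median of -1.45 on the TMM scale and 0.06 on the remaining-count scale, where 7 were higher and 5 lower of 36. Of 13 tested translation factor genes with a terminal oligopyrimidine motif, 0 were higher and 4 lower on the TMM scale (Eif4a2, Rack1, Npm1 and Eef1g), with a median of -0.63 that turned to 0.86 on the remaining-count scale. Eif4a2 and Rack1 also hold annotated snoRNAs.

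Nuclear tRNA genes were called in both directions. Of 434 rows, 250 had a count and 117 were tested, and 22 were higher and 22 lower on the TMM scale, with a median log2 change of -0.08. That is 18.8% in each direction, below the 33.0% of all tested features that were higher and near the 18.9% that were lower. On the remaining-count scale 83 of 128 were higher and 3 lower, beside 1686 higher and 88 lower of all 2523 features. The median there was 1.37 over the 116 tRNA genes tested on both scales, beside 1.67 over all features tested on both. The calls also hang on single libraries, with 9 higher and 13 lower without input replicate 1, 7 higher without input replicate 2 and 36 lower without hm5C RIP replicate 1. The single changes on the TMM scale ran from -2.91 for chr7.tRNA88-SeCTCA to 5.07 for chr13.tRNA972-TyrGTA. tRNA genes of one isoacceptor are near-identical copies, so the division of reads among them is uncertain, and sums over isoacceptors are the firmer values.

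Shares of all tRNA counts, which rest on no scaling between libraries, set the isoacceptors apart. The tRNA counts summed to 19100 and 26551 in hm5C RIP, against 74220 and 84655 in input. Of 38 isoacceptors with at least 100 counts over the 4 libraries, 24 had a larger share in both hm5C RIP libraries than in either input library, 8 a smaller one, and 6 overlapped. These shares add up to a whole, so smaller shares of abundant isoacceptors, GlyCCC and ArgCCT among them, raise the shares of the others. As shares of all counts left without Acsl6, 34 of the 38 were larger in both hm5C RIP libraries (89.5%) and 3 smaller (7.89%), beside 61.6% and 20.0% of the 789 rows of any class with at least 100 counts. An isoacceptor is a sum over genes and a row is not, so these percentages are not of like units. Single tRNA genes on the remaining-count scale were higher in 83 of 128, beside 1686 of 2523 for all features. The isoacceptor named LeuCAA by its anticodon moved the most: it held 0.471% and 0.580% of tRNA counts in hm5C RIP, against 0.0539% and 0.0366% in input, an 11.6-fold ratio of mean shares. All 4 of its genes were tested and all 4 were higher. The tRNA for leucine with this anticodon is a substrate of NSUN2, which methylates its wobble cytosine. No other isoacceptor was listed here as an NSUN2 substrate, which does not mean that NSUN2 methylates no other tRNA. Whether recovery followed NSUN2 sites was not tested.

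The counts behind these shares are modest. The LeuCAA genes summed to 90 and 154 counts in hm5C RIP and 40 and 31 counts in input. Among them chr11.tRNA1911-LeuCAA had 22 and 25 counts in hm5C RIP and 5 and 5 counts in input, a log2 change of 3.39 (SE 0.51, adjusted p = 0.00114 in edgeR). The gene chr13.tRNA85-LeuCAA had 18 and 35 counts in hm5C RIP and 13 and 12 counts in input, a log2 change of 2.21, whose adjusted p was 0.0905 without input replicate 1 and 0.173 without input replicate 2. All 4 changes were positive on both scales, with medians of 3.11 on the TMM scale and 4.62 on the remaining-count scale.

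Next in order came LysTTT, with 1.94% and 1.34% of tRNA counts in hm5C RIP and 0.264% and 0.241% in input, a 6.49-fold ratio. Of its 4 tested genes 3 were higher, among them chr1.tRNA485-LysTTT with 167 and 129 counts in hm5C RIP and 41 and 56 counts in input. The ratio was 5.51 for TyrGTA, with 3 of 5 tested genes higher, and 5.48 for CysGCA. TyrGTA held 140 and 101 counts in hm5C RIP and 85 and 74 counts in input. LeuCAG followed with 0.974% and 1.10% of tRNA counts in hm5C RIP, against 0.314% and 0.345% in input. The hm5C RIP libraries lie close together for LeuCAA and CysGCA and farther apart for TyrGTA.

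DNMT2 methylates a cytosine in the anticodon loop of the tRNAs AspGTC, GlyGCC and ValAAC. Of 10 tested genes of these isoacceptors 3 were higher and 0 lower on the TMM scale, with a median log2 change of 0.10 that lay at -0.07 where TMM was run without Acsl6. The 3 of 10 are close to the 33.0% higher among all tested features, and 1 was higher without input replicate 2. AspGTC held 1.08% and 1.86% of tRNA counts in hm5C RIP, against 0.567% and 0.653% in input. GlyGCC held 4.93% and 4.17% in hm5C RIP, against 2.46% and 2.16% in input, and ValAAC 3.45% and 4.15% in hm5C RIP, against 3.10% and 3.07% in input. None of the 3 overlapped between the groups, but 24 of all 38 isoacceptors likewise had a larger share in both hm5C RIP libraries. The tested ValAAC genes had a median log2 change of -0.33 on the TMM scale. The 3 called genes were chr1.tRNA707-AspGTC, with 26 and 103 counts in hm5C RIP and 10 and 16 counts in input, chr1.tRNA706-GlyGCC and chr8.tRNA562-GlyGCC. Leaving out input replicate 2 raised the edgeR adjusted p to 0.158 for chr1.tRNA706-GlyGCC, and leaving out 1 library gave 0.228 to 0.63 for chr8.tRNA562-GlyGCC, except without hm5C RIP replicate 2.

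At the other end, ArgCCT held 5.70% and 4.35% of tRNA counts in hm5C RIP, against 15.2% and 9.07% in input, a ratio of 0.414. All 5 of its genes were lower on the TMM scale, with a median log2 change of -1.47. The largest were -2.28 for chrX.tRNA321-ArgCCT and -1.78 for chr6.tRNA107-ArgCCT. On the remaining-count scale these were -0.81 (edgeR adjusted p = 0.0102) and -0.33 (adjusted p = 0.242). The change of chr11.tRNA1022-ArgCCT, -0.85, is smaller than the median shift of 1.47 between the scales, so its sign may depend on the scale. The tRNA for selenocysteine, SeCTCA, had a ratio of 0.320 and held 8 and 15 counts in hm5C RIP and 143 and 97 counts in input. GlyCCC, the most counted isoacceptor, held 35.4% and 33.9% of tRNA counts in hm5C RIP, against 38.5% and 43.8% in input, and GluCTC, the next, 24.9% and 27.2% against 20.2% and 22.4%.

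**Figure D4:**
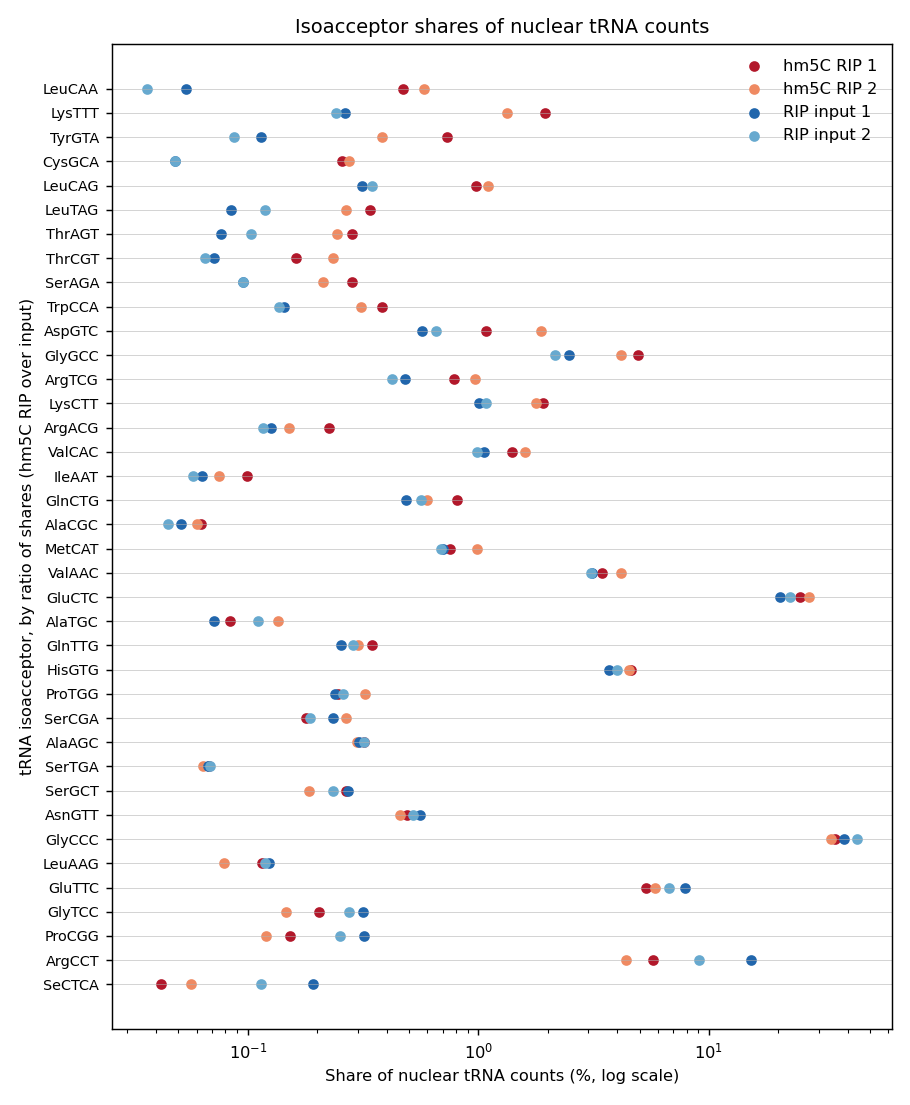
Share of nuclear tRNA counts (%, log scale) of the 38 isoacceptors with at least 100 counts, in the 2 hm5C RIP libraries (red shades) and the 2 input libraries (blue shades), ordered by the ratio of mean shares. LeuCAA at the top has shares of 0.471% and 0.580% in hm5C RIP against 0.0539% and 0.0366% in input, and SeCTCA and ArgCCT at the bottom lie lower in hm5C RIP.

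Most tested rows of 5S ribosomal RNA were higher over all 4 libraries. Of 41 tested 5S rows, 28 were higher and 1 lower in hm5C RIP on the TMM scale, with a median log2 change of 1.79, and 43 of 45 were higher on the remaining-count scale. The count of higher rows fell to 10 of 45 without either input library and to 12 of 94 with no count filter, and 5 rows were lower without hm5C RIP replicate 1. The 5S rows are near-identical copies, so the division of reads among them is uncertain and their sum is the firmer value. The 180 rows together held 2513 and 1888 counts in hm5C RIP, against 1956 and 2206 counts in input. They summed to 1607 and 899.0 CPM of all counts in hm5C RIP, against 421 and 451 CPM in input. Of the counts left without Acsl6 they made up 3584 and 2282 CPM in hm5C RIP, against 422 and 452 CPM in input, so the groups did not overlap on either measure. Among the most counted copies, n-R5s88 (chromosome 9, 102127887 to 102128005) had 624 and 493 counts in hm5C RIP and 326 and 461 counts in input, a log2 change of 1.79. The copy n-R5s28 had 88 and 87 counts in hm5C RIP and 43 and 45 counts in input, a log2 change of 2.21. The 1 lower copy was n-R5s131, with 31 and 16 counts in hm5C RIP and 161 and 175 counts in input. The 5.8S row n-R5-8s1 had 1510 and 2880 counts in hm5C RIP and 3548 and 4735 counts in input, a log2 change of 0.23 (edgeR adjusted p = 0.522).

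MicroRNAs, the short guides of Argonaute proteins, were mostly lower on the TMM scale and mostly without a call on the remaining-count scale. Of 175 tested genes 5 were higher and 108 lower on the TMM scale, with a median log2 change of -1.19. On the remaining-count scale 44 of 176 were higher and 4 lower, with a median of 0.28, so the direction of the class depends on the scale. Mature sequences are shown for genes that rose, for some of the most counted ones and for 2 that fell. Bases 2 to 8, the seed that pairs with targets, are in capitals. They are from RefSeq, GRCm38.p6, and the counts themselves are per gene and do not separate the arms of a hairpin. The higher genes with a mature sequence come first.
mmu-miR-5119: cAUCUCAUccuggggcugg
mmu-miR-5106: aGGUCUGUagcucaguuggcaga
mmu-miR-6240: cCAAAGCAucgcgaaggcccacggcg
mmu-miR-10a-5p: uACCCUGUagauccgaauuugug
Some of the most counted genes of the input and 2 of the falling ones follow.
mmu-miR-182-5p: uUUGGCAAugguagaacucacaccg
mmu-miR-183-5p: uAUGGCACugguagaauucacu
mmu-miR-92a-3p: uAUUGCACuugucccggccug
mmu-miR-363-3p: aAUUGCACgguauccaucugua
mmu-miR-16-5p: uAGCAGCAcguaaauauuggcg
mmu-miR-186-5p: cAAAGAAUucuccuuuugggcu

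Of the 5 higher rows annotated as microRNA genes, 2 had no count in the input. The counts do not show whether the reads of these rows came from mature microRNAs. The number of higher genes was 10 of 202 without either hm5C RIP library. Mir5119 had 31 and 17 counts in hm5C RIP and 0 counts in both input libraries, at least 20.0-fold higher against a floor of 3 counts per input library. Mir5106 had 60 and 8 counts in hm5C RIP and none in input, at least 31.2-fold higher, with hm5C RIP libraries that lie far apart. Mir6240 had 35 and 85 counts in hm5C RIP and 34 and 59 counts in input, a log2 change of 1.49. Mir10a had 21 and 67 counts in hm5C RIP and 14 and 41 counts in input, a log2 change of 1.78. The fifth, Mir320, had 193 and 175 counts in hm5C RIP and 130 and 176 counts in input, a log2 change of 1.52 (SE 0.33, adjusted p = 0.00533 in edgeR). Without input replicate 1 the adjusted p was 0.335 for Mir6240, 0.365 for Mir10a and 0.0892 for Mir320, and without input replicate 2 it was 0.0974 for Mir6240. The row Mir6236 took 1.99% and 2.19% of microRNA counts in hm5C RIP, against 0.368% and 0.656% in input, and its log2 change was 0.93 with an edgeR adjusted p of 0.0552 (0.028 without input replicate 2, 0.0162 without hm5C RIP replicate 1 and 0.000738 without hm5C RIP replicate 2).

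Shares of the class were close in both groups for some abundant microRNAs and apart for others. Mir182, a microRNA gene (chromosome 6, 30165918 to 30165992) with the sequence shown, held 33.0% and 34.0% of microRNA counts in hm5C RIP, against 30.1% and 33.8% in input. It had 15210 and 19046 counts in hm5C RIP and 67104 and 93129 counts in input. Its log2 change was -1.01 on the TMM scale (edgeR adjusted p = 0.0188) and 0.45 on the remaining-count scale (adjusted p = 0.0371). Mir92-2 held 7.31% and 7.57% in hm5C RIP, against 8.19% and 7.85% in input. Mir541 held 4.02% and 3.99% in hm5C RIP, against 5.55% and 5.21% in input, a ratio of 0.744. Mir92b, by contrast, held 2.62% and 3.23% in hm5C RIP, against 2.02% and 1.97% in input.

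The 6 falling microRNA genes with the smallest p had log2 changes between -3.18 and -1.60 on the TMM scale. Mir186 had 170 and 265 counts in hm5C RIP and 1880 and 1859 counts in input, a log2 change of -1.94 (SE 0.26, adjusted p = 0.000816 in edgeR), and of -0.45 on the remaining-count scale (adjusted p = 0.123). Mir363 had 156 and 223 counts in hm5C RIP and 1290 and 1294 counts in input, a log2 change of -1.60 on the TMM scale and of -0.11 on the remaining-count scale. All 6 tested genes with the seed AGCAGCA, the family of miR-15 and miR-16, were lower on the TMM scale, with log2 changes from -1.49 to -0.82. These changes are about as large as the median shift of 1.47 between the scales or smaller, so their direction may depend on the scale. Of the 4 tested genes with the seed AUUGCAC, 3 were lower, Mir92-2 and Mir363 among them. The fourth, Mir92b, had a log2 change of -0.54 (edgeR adjusted p = 0.110), which passed as lower without either input library (0.0331 and 0.0434) or without hm5C RIP replicate 1 (0.0442), and was 0.94 on the remaining-count scale. Over 148 tested genes with a hairpin in RefSeq, Spearman's rho across genes between the share of cytosine in the hairpin and the log2 change was -0.02, and in 3 groups of rising cytosine share the median log2 changes were -1.28, -1.14 and -1.24.

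Clusters of microRNAs known from stem cells were lower on the TMM scale as well. All 6 tested members of the miR-17-92 cluster and its paralogs were lower on the TMM scale, with a median of -1.53, which was -0.05 on the remaining-count scale. The imprinted Dlk1-Dio3 cluster had 0 higher and 26 lower of 32 tested, and a median of -1.56, which was -0.10 on the remaining-count scale. The miR-302 cluster had 0 higher and 3 lower of 4 tested. For the miR-290 cluster, the most abundant one of mouse embryonic stem cells, 8 of the 9 rows were listed at 0 in every library, and Mir290a had 17 and 15 counts in hm5C RIP and 132 and 123 counts in input. The let-7 family had 0 higher and 0 lower of 3 tested, and a median of -0.26 on the TMM scale and 1.19 on the remaining-count scale, where all 3 were higher.

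Mitochondrial transcripts held a like share of the remaining counts in all libraries, as given above. On the TMM scale 15 of the 25 tested rows were lower and 0 higher. Of 14 tested mitochondrial tRNA genes 0 were higher and 10 lower on the TMM scale, with a median log2 change of -1.54, and 2 were higher and 3 lower of 15 on the remaining-count scale, where the median was 0.09 over the 15 and -0.06 over the 14 tested on both scales. The gene mt-Ta, the mitochondrial alanine tRNA, had 25 and 29 counts in hm5C RIP and 420 and 440 counts in input, a log2 change of -2.80 (SE 0.29, adjusted p = 0.000355 in edgeR) and of -1.32 on the remaining-count scale. The gene mt-Tq, the glutamine tRNA, had 354 and 295 counts in hm5C RIP and 6113 and 5107 counts in input, a log2 change of -2.86. Mitochondrial mRNAs had 0 higher and 4 lower of 9 tested (mt-Nd6, mt-Nd5, mt-Nd2 and mt-Nd4l), with a median of -0.97 that turned to 0.54 on the remaining-count scale. Without hm5C RIP replicate 1, 7 of the 9 were lower. Without input replicate 2 the edgeR adjusted p was 0.0584 for mt-Nd2 and 0.0565 for mt-Nd4l, and without input replicate 1 it was 0.125 for mt-Nd4l.

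Histone genes of the replication-dependent kind, whose mRNAs end in a stem-loop in place of a poly(A) tail, had 0 higher and 14 lower of 33 tested, and a median of -1.59 on the TMM scale and -0.15 on the remaining-count scale. The count of lower histone genes was 7 of 28 without input replicate 2 and 22 of 38 without hm5C RIP replicate 1, where 2 were higher. Hist1h4d had 24 and 33 counts in hm5C RIP and 448 and 569 counts in input, a log2 change of -2.97 (SE 0.28, adjusted p = 0.000271 in edgeR). Hist1h4a had 4 and 8 counts in hm5C RIP and 143 and 196 counts in input, a log2 change of -3.64. Among 9 tested structured noncoding RNAs, 1 was higher and 4 lower on the TMM scale. Their median of -0.51 turned to 1.06 on the remaining-count scale, and to 0.09 on the TMM scale without hm5C RIP replicate 1. The higher one was Rn7s1, the RNA of the signal recognition particle, with 111 and 154 counts in hm5C RIP and 169 and 177 counts in input, a log2 change of 0.79 (edgeR adjusted p = 0.0293). The adjusted p of Rn7s1 was 0.511 without input replicate 1 and 0.673 without input replicate 2. Rny1, a Y RNA, had 329 and 383 counts in hm5C RIP and 2215 and 2354 counts in input, a log2 change of -1.47 that was -0.01 on the remaining-count scale. The named spliceosomal snRNA genes had 0 higher and 2 lower of 3 tested, Rnu5g and Rnu12, with a median of -1.18 that turned to 0.30 on the remaining-count scale.

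Noncoding transcripts of the Dlk1-Dio3 region differed among themselves. Rian, which hosts snoRNAs, had 19 and 23 counts in hm5C RIP and 270 and 251 counts in input, a log2 change of -2.45 on the TMM scale. Mirg, the host of a microRNA cluster, had 5 and 6 counts in hm5C RIP and 47 and 82 counts in input, a log2 change of -2.34. Meg3, from the same region, had 5 and 10 counts in hm5C RIP and 7 and 5 counts in input, a log2 change of 1.44 (SE 0.51, adjusted p = 0.0443 in edgeR). Leaving out any 1 of the 4 libraries raised the adjusted p of Meg3 to between 0.0719 and 0.839. The nuclear RNA Malat1 had 26 and 43 counts in hm5C RIP and 52 and 78 counts in input, a log2 change of 0.26 (adjusted p = 0.585).

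No tested gene of the hm5C and 5-methylcytosine machinery was called on the TMM scale over all 4 libraries. Of 5 tested TET and DNA methylation genes 0 were called, with a median of 0.62, and all 6 tested were higher on the remaining-count scale. On the TMM scale 2 of 7 were higher without hm5C RIP replicate 1 and 1 of 6 without hm5C RIP replicate 2. Tet2 had 3 and 15 counts in hm5C RIP and 6 and 16 counts in input, a log2 change of 0.82 (SE 0.70, adjusted p = 0.377 in edgeR), and of 2.34 on the remaining-count scale (adjusted p = 0.00776). Tet1 had 4 and 24 counts in hm5C RIP and 20 and 18 counts in input, with an adjusted p of 0.438, and of 0.0231 without hm5C RIP replicate 1. The list drawn up for RNA cytosine methylation had 2 tested members, Ybx1 and Angel2, and 0 were called. Angel2 is not a known writer or reader of 5-methylcytosine, so only Ybx1 stands for that machinery here. The 12 tested SR and hnRNP splicing regulators had 0 higher and 0 lower, with a median of 0.27 that was -0.03 where TMM was run without Acsl6, and 1 was higher and 3 lower of 22 without hm5C RIP replicate 1, against 3 higher and 1 lower of 18 without hm5C RIP replicate 2. Of the 12 tested pluripotency genes 0 were higher and 2 lower, Tfcp2l1 and Esrrb, with a median of -0.64 that turned to 1.013 on the remaining-count scale, and 3 were higher and 3 lower of 16 without hm5C RIP replicate 1. The edgeR adjusted p of Esrrb, 0.0394 over all libraries, was 0.465 without input replicate 1, 0.33 without input replicate 2 and 0.1 without hm5C RIP replicate 2. Among fibroblast markers Col1a2, a collagen gene, had 50 and 84 counts in hm5C RIP and 13 and 12 counts in input, a log2 change of 3.56 (adjusted p = 0.000362), while Fn1 changed by 0.15 (adjusted p = 0.823).

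**Figure D5:**
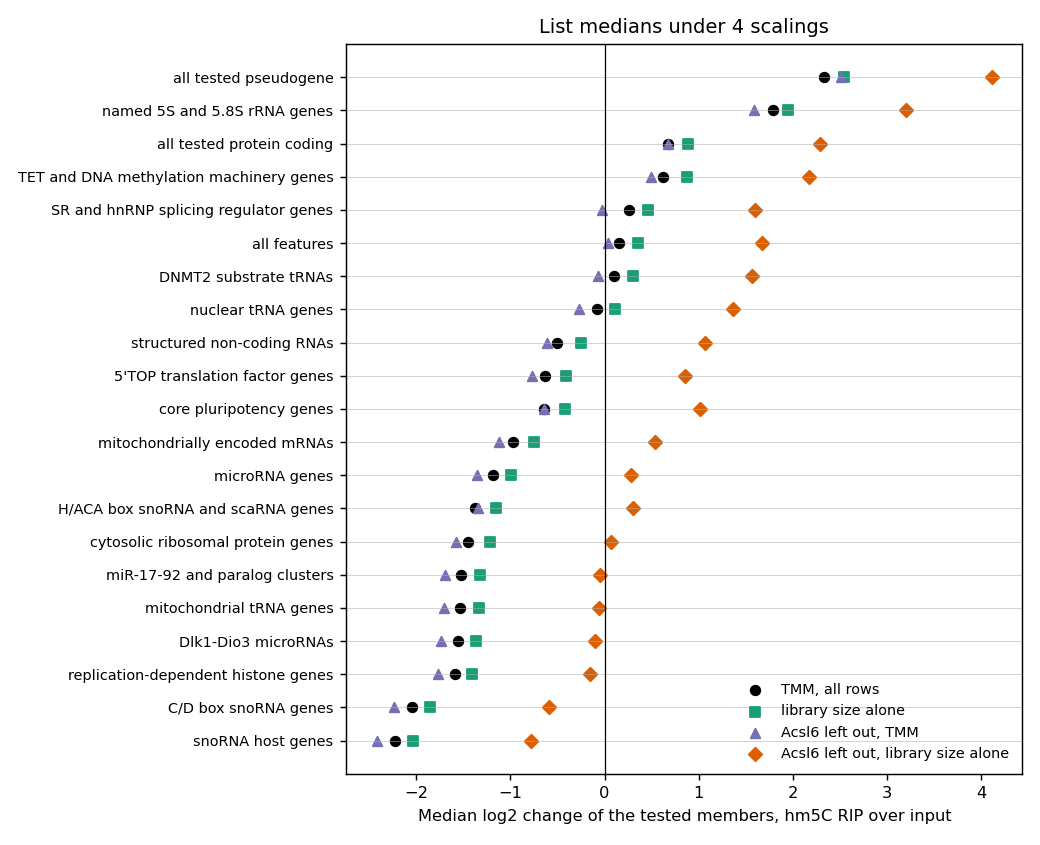
Median log2 change (hm5C RIP over input) of the tested members of each list with at least 5 tested members, under TMM over all rows (black circles), library size alone (green squares), TMM without Acsl6 (violet triangles) and library size without Acsl6 (orange diamonds). On the TMM scale the medians run from -2.22 for snoRNA host genes to 1.79 for 5S and 5.8S rRNA and 2.33 for pseudogenes (0.46 without hm5C RIP replicate 1, 0.73 without replicate 2 and 0.19 with the filter on the mean of all libraries), and over all features the orange points lie a median of 1.47 to the right.

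The set recovered by the hm5C antibody was compared with the set recovered by crosslinking to tagged TET2 (CLIP, clones 65 and 75, 4 TET2 CLIP against 4 input libraries), which shares no library with RIP. Of the 1371 features tested in both, 426 were higher in hm5C RIP (31.1%) and 240 higher in TET2 CLIP (17.5%), and 65 were higher in both. Of the 65, 24 were rRNA rows, 14 protein coding genes (of 1025 tested in both) and 13 nuclear tRNA genes (of 62). The rRNA rows are near-identical copies with an uncertain division of reads, so they do not stand for 24 separate RNAs. The 65 are 15.3% of the hm5C RIP list, beside 17.5% higher in TET2 CLIP among all 1371. They are 27.1% of the TET2 CLIP list, beside 31.1% higher in hm5C RIP among all 1371. The lists thus shared no more features than these rates among all 1371. Another 37 were higher in hm5C RIP and lower in TET2 CLIP, 8.69% of the hm5C RIP list beside 11.96% lower in TET2 CLIP among all 1371. Of the 191 features lower in hm5C RIP, 61 were higher in TET2 CLIP (31.9%, beside 17.5% among all 1371) and 23 were lower in both (12.04%, beside 11.96%). Spearman's rho between both log2 changes was -0.04 across the 1371 features, 0.01 across 1025 protein coding genes and 0.13 across 62 tRNA genes, as a description across features that share libraries.

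Most tRNA genes were higher in TET2 CLIP whichever way they went in hm5C RIP. All 13 tRNA genes that were higher in hm5C RIP and tested in both were higher in TET2 CLIP, with a median TET2 CLIP log2 change of 3.07, and so were 8 of the 10 that were lower in hm5C RIP (median 2.64) and 36 of the 39 without a call (median 3.14). All 4 LeuCAA genes were higher in both, with TET2 CLIP changes between 2.66 and 3.13.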

How the data were processed

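The deposited values used here are raw counts per feature, which the authors made from reads. Counts were whole numbers whose column sums differed between libraries. Bowtie2 2.2.6, STAR 2.5.3a, cutadapt, UMI-tools and build mm10 are listed, with no role or order, per the submitters' processing notes. The counting tool, annotation and use of strand are not given in the sources used here, so overlapping genes cannot be told apart. Names, biotypes and positions came from RefSeq tables of GRCm38.p6, the assembly of mm10 (37603 of 53900 rows matched, 53274 of 53465 Ensembl rows with a symbol). A snoRNA inside a gene was counted on either strand.

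Counts of the 4 RIP libraries were tested with edgeR 4.0.16 (R 4.3.3): filterByExpr, TMM, robust quasi-likelihood F-test, Benjamini-Hochberg adjustment over all tested features, threshold 0.05. CPM, log2 changes and SE use TMM-scaled library sizes. TET2 CLIP was fitted over its 8 libraries and tested as the mean of both clones. On counts simulated for this comparison (1805 features), 14.3% of the 2-fold changes were recovered, and 70.2% of the 4-fold ones.

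Named were the 12 rising and 12 falling features with the smallest p among called ones with no overlap of groups, the up to 6 smallest p of each list, the 10 largest shares of each group, microRNAs by p and level (6 each), Acsl6 and Tet2. A result named by this rule is not reported here. Olfr215, Rhox2e, the isoacceptors, Slc2a8 and Mir6236 were chosen after their values were seen. Members, lists and tests were chosen with earlier results of these data known. Alternatives were DESeq2 1.42.0 size factors and its Wald test, library size alone, other filters, Acsl6 left out, the replicate block, leaving out each library and, added after seeing the data, a log2 limit of 1 and class shares without Acsl6.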

Additional observations from a re-analysis of the deposited data

How the results depend on the processing

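The number of higher features, 686, stayed within 1.5 times under library size alone, DESeq2 size factors, the DESeq2 Wald test, no count filter, TMM without Acsl6 and a log2 limit of 1. It was 370 with the filter on the mean of all libraries and 1686 on the remaining-count scale. A like number need not mean the same features. Of the 686, 685 were higher again under DESeq2 size factors, 686 under library size alone and 658 under TMM without Acsl6. With the DESeq2 Wald test 537 were higher again, with no count filter 411 and with the mean filter 341. The number of lower features, 394, was 88 on the remaining-count scale. Leaving out 1 library at a time gave 336 to 745 higher and 301 to 640 lower features, where a group with 1 library is assumed to vary like the other. Of the nuclear tRNA genes 22 were higher, against 10 with no filter and 83 on the remaining-count scale, and 22 were lower, against 13 with library size alone, 35 with no filter, 12 with the mean filter, 11 with the DESeq2 Wald test and 3 on the remaining-count scale. Leaving out 1 library gave 7 to 28 higher and 13 to 36 lower tRNA genes. The cause of these moves was not tested. The remaining-count scale joins a pair of choices, and each alone gave fewer: TMM without Acsl6 gave 824 higher features and 24 higher tRNA genes, and library size alone with Acsl6 gave 731 and 24.

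On that scale the log2 changes of these features reversed: Mir182 (0.45), Mir92-2 (0.28), Mir92b (0.94), Rnu5g (0.30), Snord49a (0.0079), Snord55 (0.54), mt-Nd2 (0.16), mt-Nd4l (0.25) and mt-Nd5 (0.54). No other setting reversed a feature named here. Of the 82 named features tested on it, 50 had the same direction and call, 15 lost and 8 gained the call. Leaving Acsl6 out changed the mean hm5C RIP shares of classes, which were 56.3% for snoRNAs (23.8% of all counts), 15.8% for protein coding rows (64.5%), 6.68% for microRNAs (2.81%), 2.97% for tRNA (1.24%), 0.575% for rRNA (0.242%), 0.429% for pseudogenes (0.180%) and 0.517% for mitochondrial RNA (0.217%). The mean Acsl6 share of 57.9% was 55.2% to 60.6% with 1 hm5C RIP library left out.

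No shared effect of the replicate number was seen: the correlation of same-numbered deviations was 0.02 over 2081 features. This does not tell whether an hm5C RIP library and the input of the same number came from the same RNA. With the replicate number as a block, 654 features were higher and 384 lower, and 21 tRNA genes were higher and 21 lower. Depth limits the precise size of changes in scarce features, since 252 of the 686 higher features had 3 counts or fewer over both input libraries, and medians over lists with such members set at a bound moved by at most 0.29, in the Sfmbt2 microRNAs.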
